A study of Mus musculus with 15 samples.

Results

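Thermogenesis and uncoupling genes are 8 genes of heat production and proton leak: Ucp1, Ucp2, Ucp3, Cidea, Dio2, Prdm16, Adrb3 and Ppargc1b. They were chosen by name, with earlier results of these data known. All 8 were found among the 22549 gene names of the table, on 9 of its 33603 loci. The study sequenced RNA of epididymal fat, liver, colon and, from the brain, hypothalamus and hippocampus. Male C57BL/6 mice were kept under 3 diets, with 1 library per tissue and diet made from the RNA of 5 mice. AL mice ate ad libitum and were 5 months of age. DR mice received 60% of the AL food for 1 month from 4 months of age and were also 5 months of age. DR-AL mice had the same month of DR, returned to AL food for 2 months and were 7 months of age, so the return to AL food and the older age cannot be told apart. The comparison asks whether a month of DR altered these genes and whether a difference was still seen after the return to AL. Because each group is a single pooled library, no comparison of 2 diets within a tissue has a replicate check, and the intervals below cover counting error only. The colon samples were intestinal mucosa.

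Uncoupling proteins are carriers of the inner mitochondrial membrane. UCP1 lets protons return without making ATP and is the heat source of brown and beige adipocytes, while UCP2 and UCP3 are related carriers of wider tissue distribution. In brown fat, noradrenaline acts through the beta3-adrenergic receptor (Adrb3) and cyclic AMP, type 2 deiodinase (Dio2) makes active thyroid hormone inside the cell, PRDM16 sets brown and beige cell identity, CIDEA sits on lipid droplets, and PGC-1beta (Ppargc1b) is a coactivator of mitochondrial genes. Epididymal fat is a visceral white depot, which in mice at ordinary housing temperatures holds few beige cells.

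On GRCm38, in the GENCODE M21 annotation, the 8 genes are protein coding. Ucp3 (chromosome 7, 100472990-100486432) and Ucp2 (chromosome 7, 100493337-100502020) are neighbours on the plus strand, with 6904 bases between the end of Ucp3 and the start of Ucp2. Ucp1 (83290352-83298452, plus strand) and Adrb3 (27225776-27250616, minus strand) are on chromosome 8, Dio2 (90724552-90738438, minus strand) on chromosome 12 and Prdm16 (154316125-154636873, minus strand) on chromosome 4. The table of RefSeq promoters held 5 of the 8 genes. The 250 bases before the RefSeq start (GRCm38.p6) are shown for the 3 uncoupling proteins, which are compared with each other below, and for Dio2, which differed between diets in fat and in both brain regions. Capitals mark the motifs searched on both strands: the core of the cyclic AMP response element (TGACG), the nuclear receptor motif (AGGTCA), the TATA box (TATAAA), the CCAAT box, and the GC box, spelled GGGCGG.
Ucp1: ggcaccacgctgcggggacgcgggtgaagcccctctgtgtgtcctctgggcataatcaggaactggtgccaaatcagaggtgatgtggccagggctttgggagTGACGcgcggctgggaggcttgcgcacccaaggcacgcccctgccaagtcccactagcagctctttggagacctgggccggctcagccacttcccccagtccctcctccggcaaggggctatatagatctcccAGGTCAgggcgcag
Ucp2: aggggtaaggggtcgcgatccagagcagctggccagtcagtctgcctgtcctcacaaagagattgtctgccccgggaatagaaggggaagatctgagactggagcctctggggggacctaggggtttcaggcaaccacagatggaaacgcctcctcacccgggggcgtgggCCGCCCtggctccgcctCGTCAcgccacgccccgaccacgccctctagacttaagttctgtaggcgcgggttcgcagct
Ucp3: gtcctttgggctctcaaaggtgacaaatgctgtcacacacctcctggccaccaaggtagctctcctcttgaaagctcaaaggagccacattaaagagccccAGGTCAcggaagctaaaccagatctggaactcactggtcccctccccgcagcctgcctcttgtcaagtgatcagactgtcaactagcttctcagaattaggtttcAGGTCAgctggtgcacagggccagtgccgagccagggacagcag
Dio2: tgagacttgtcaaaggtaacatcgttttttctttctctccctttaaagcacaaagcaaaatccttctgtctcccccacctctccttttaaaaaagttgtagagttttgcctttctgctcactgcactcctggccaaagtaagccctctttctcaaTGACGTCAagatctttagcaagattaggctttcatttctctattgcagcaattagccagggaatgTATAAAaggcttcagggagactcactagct

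These windows are chr8:83290098-83290347 for Ucp1, chr7:100493108-100493357 for Ucp2 and chr7:100472741-100472990 for Ucp3, all on the plus strand, and chr12:90739039-90739288 on the minus strand for Dio2. The Ucp1 window held TGACG, beginning 147 bases before the start, and AGGTCA at 14 bases. In the Ucp2 window there were a GC box on the minus strand at 79 bases and TGACG on the minus strand at 62 bases. Neighbouring Ucp3 held AGGTCA at 149 and at 44 bases and neither of those other motifs. Dio2 had TATAAA at 30 bases and TGACG on both strands, at 95 and 92 bases, which overlap and read as 1 palindrome. Among 32851 RefSeq windows of the same length, 17.8% held TGACG, 14.0% AGGTCA, 12.4% TATAAA, 32.7% a GC box and 33.8% CCAAT on either strand. Base composition differed between the neighbours, with 16 CG dinucleotides in the Ucp2 window and 3 in the Ucp3 window, against a median of 6.00 over all windows. Ucp1 had 12 and Dio2 had 2. The matches are letters in a window and were not tested for binding.

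Each library held between 21767088 and 40500130 counts on named loci (median 26554699), and levels are given as CPM, the counts scaled to a common total of such counts per library. A count of 0 allows up to 3 counts, which is 0.0741 to 0.138 CPM. The tissue labels matched their markers. The 10 white adipocyte markers summed to 30996.3 to 44413.7 CPM in the fat libraries and to 399 at most elsewhere, 5 colon epithelium markers to 6653.9 or more in colon and 15.1 at most elsewhere, and 5 neuron markers to 3452.4 or more in the brain regions and 69.6 at most elsewhere. Fat libraries also differed in RNA of other tissues. The median level of 190 liver-enriched genes in the AL fat library was 14.7% of that in AL liver, against 0.204% in DR and 0.120% in DR-AL fat. In the order AL, DR and DR-AL, 7 testis germ cell markers summed to 3.97, 500 and 2497.0 CPM, 8 epididymis markers to 1035.9, 3692.4 and 6161.7 CPM, 7 skeletal muscle markers to 103, 529 and 117 CPM and 5 smooth muscle markers to 1166.2, 3452.9 and 1129.2 CPM. The epididymis sum was carried by Crisp1, Spink8 and Adam7, while the other 5 of its markers (Lcn5, Lcn8, Lcn9, Cst11 and Rnase10) were highest in DR, with 2, 1003 and 5 counts for Lcn8. The part of these tissues in the values of the 8 genes was not tested, except for liver RNA. At the level of the liver-enriched genes, liver would account for 8.43% of the Ppargc1b counts and 2.31% of the Ucp2 counts in AL fat, and for under 1% of the counts of the other 6 genes. In such bulk samples, fewer cells of a type and less RNA per cell cannot be told apart.

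Ucp1 was close to absent from every library. Only 19 Ucp1 counts were found among the 422930308 counts of the 15 libraries, and 7 libraries had none. Epididymal fat had 1 count under AL (0.0381 CPM), 1 under DR (0.0438 CPM) and 8 after DR-AL (0.292 CPM), and no other library exceeded 3 counts. These levels are at or near the limit of detection. The fat libraries therefore gave Ucp1 counts too few to compare with precision, and the DR-AL to AL ratio of 7.67 had an interval from 1.03 to 340. The ratio of DR-AL to DR was 6.68, with an interval from 0.895 to 296 that includes no difference.

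Adrb3 stood at the other end. With 1277.9 CPM in the AL library, 1120.4 with DR and 880 in DR-AL fat, it was the most abundant of the 8 genes in that tissue, also per transcript length, at 289, 147 and 63.4 FPKM (fragments scaled to transcript length and library size). The 3 fat libraries all lay far above the other 12, which ranged from 0.150 to 10 CPM. The edgeR quasi-likelihood test, with the 3 diets of a tissue as its libraries, put fat above the mean of the other tissues by 9.05 on the log2 scale (SE 0.33, adjusted p = 4.32e-09). The tissues came from the same mice.

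Ucp3 was also highest in fat, with a mean of 53.3 CPM ± 17.7 (SD, n = 3 diets) against 6.88 ± 0.803 in hypothalamus, 2.69 ± 0.503 in hippocampus, 0.541 ± 0.673 in liver and 0.0975 ± 0.0328 in colon. The values of liver and colon overlapped, and those of the other neighbours in this order did not. By edgeR, fat exceeded the mean of the other tissues by 5.33 on the log2 scale (SE 0.38, adjusted p = 6.39e-07). Skeletal muscle, where UCP3 is known to be abundant, was not among the tissues.

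Ucp2 had another order. Colon was highest with 610 CPM ± 48.5 (SD, n = 3), followed by fat with 206 ± 70.0, hypothalamus with 106 ± 20.7, hippocampus with 28.9 ± 6.28 and liver with 23.5 ± 3.19, and only hippocampus and liver overlapped. Fat was above the mean of the other 4 tissues by 0.89 on the log2 scale (edgeR, SE 0.15, adjusted p = 0.000342), although it lay below colon. Per transcript length, Ucp2 was the main uncoupling protein mRNA of the 3 in every library. It made up 66.0%, 79.2% and 78.6% of their summed FPKM in AL, DR and DR-AL fat, and Ucp3 made up 33.9%, 20.8% and 21.2%. Elsewhere the Ucp2 share was 90.8% or more. The Ucp1 share was 0.402% at most, in DR hippocampus.

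**Figure D1:**
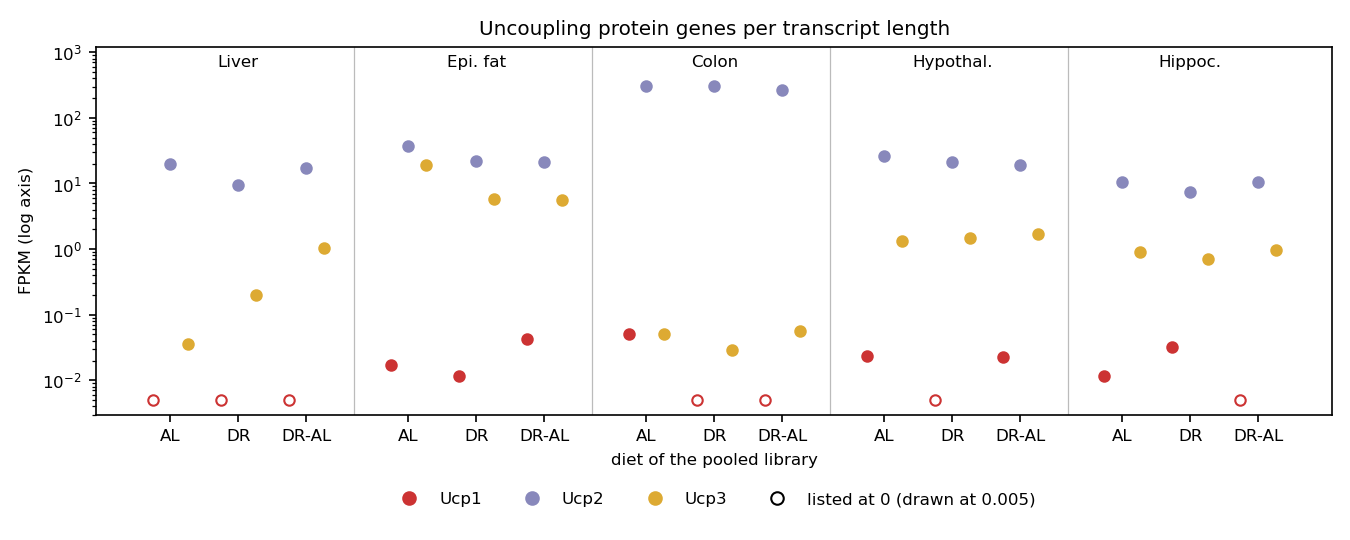
FPKM on a log axis of Ucp1, Ucp2 and Ucp3 in each of the 15 pooled libraries, by tissue and diet, with 1 point per library and no error bar. Ucp2 lies above the other 2 genes everywhere, Ucp3 comes nearest to it in fat (19.1 against 37.2 FPKM in AL), and open circles mark libraries in which Ucp1 is listed at 0.

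Cidea, a lipid droplet gene of brown and beige adipocytes, averaged 6.55 CPM ± 4.38 in fat, 6.28 ± 0.571 in hippocampus and 5.48 ± 0.837 in hypothalamus (SD, n = 3 each), and these 3 tissues overlapped. It was lower in liver (0.385 ± 0.375) and colon (0.300 ± 0.130). The edgeR difference of fat from the mean of the others was 1.69 on the log2 scale (SE 0.40, adjusted p = 0.00369). Without the DR fat library it was 1.10 and the adjusted p from edgeR was 0.0634, so the call rests on that library.

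Of the other genes, 3 were highest outside fat. Dio2 averaged 86.9 CPM ± 22.9 in hippocampus and 16.8 ± 4.73 in hypothalamus, but only 0.991 ± 1.05 in fat, 0.196 ± 0.0802 in colon and 0.0459 ± 0.0796 in liver (SD, n = 3 each), where the last 3 tissues overlapped their neighbours. Prdm16 was highest in hypothalamus (30.4 ± 0.508) and hippocampus (22.4 ± 1.57), then colon (10.8 ± 0.892), fat (7.87 ± 0.898) and liver (0.630 ± 0.220), with no overlap between neighbours. Ppargc1b was highest in colon (67.7 ± 6.63), followed by hypothalamus (27.5 ± 3.80) and hippocampus (24.7 ± 2.84), which overlapped, and by fat (16.2 ± 3.88) and liver (10.7 ± 1.32), which also overlapped.

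By edgeR, Ppargc1b in fat was below the mean of the other tissues by 1.13 on the log2 scale, a log2 difference of -1.13 (SE 0.17, adjusted p = 0.000211). The difference of Prdm16 was -0.49 (edgeR, SE 0.14, adjusted p = 0.00944), and without the DR fat library it was -0.44 with an edgeR adjusted p of 0.0502. Dio2 did not pass by edgeR, with -1.54 (SE 0.69, adjusted p = 0.0734), but passed without the DR-AL fat library, with -2.65 (edgeR, adjusted p = 0.00759). It also passed by DESeq2, with -1.75 (adjusted p = 0.00677). Ucp1 did not pass the filter on low counts. In all, 4 of the 7 genes tested by edgeR were higher in fat and 2 were lower. Of the 16993 genes in the fit, 37.7% were higher in fat and 26.3% lower.

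**Figure D2:**
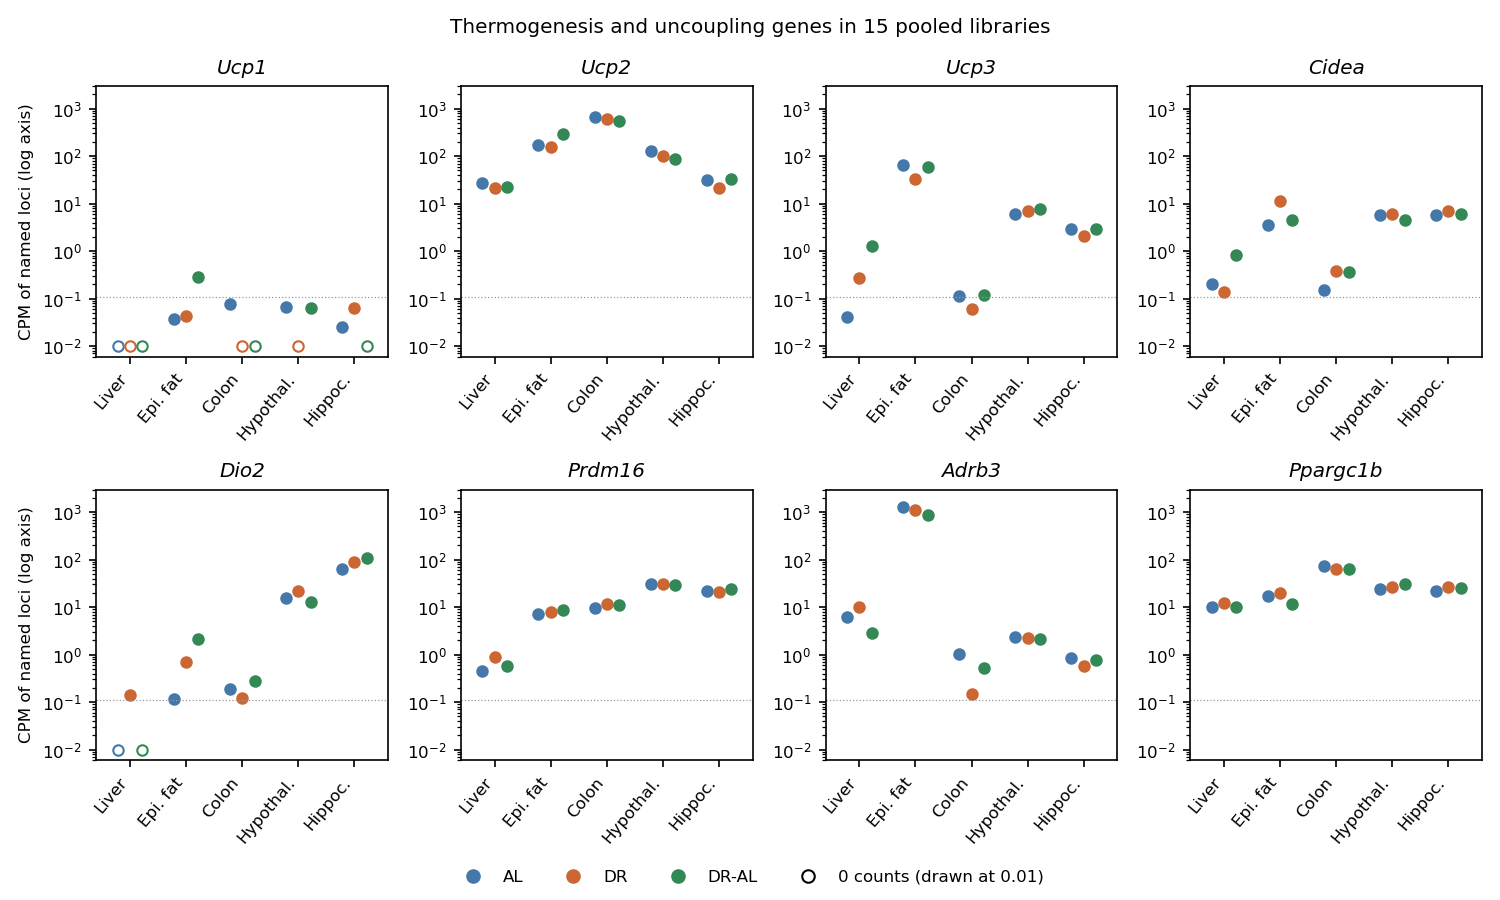
CPM on a log axis of the 8 genes in the 15 pooled libraries, 1 point per library, with tissues on the horizontal axis and diets as colours. The dotted line lies at 0.11 CPM, within the range of 0.0741 to 0.138 CPM that 3 counts are worth, and open circles are libraries with 0 counts. Adrb3 and Ucp3 are highest in fat, Ucp2 and Ppargc1b in colon, Dio2 in hippocampus and Prdm16 in hypothalamus.

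Diet was then compared in fat. A gene was taken to differ between 2 libraries where the Z test of the study's methods gave a Benjamini-Hochberg adjusted p under 0.05 over all genes and the CPM ratio was at least 5 to 4 in either direction. With DR, Cidea and Dio2 were higher and Ucp3 was lower than in AL, and the other 5 genes did not differ. In DR-AL fat, Ucp2, Dio2, Prdm16 and Ucp1 were higher than in AL, Adrb3 and Ppargc1b were lower, and Ucp3 and Cidea did not differ. Between DR-AL and DR, Ucp1, Ucp2, Ucp3 and Dio2 were higher in DR-AL, Cidea, Adrb3 and Ppargc1b were lower, and Prdm16 did not differ. With the totals as the scale, no gene except Dio2, which had few counts in fat, differed from AL in both diets. With DESeq size factors, Ucp3 and Adrb3 were also lower than AL in both. Their log2 ratios for DR and DR-AL were -1.19 and -0.48 for Ucp3, and -0.38 and -0.88 for Adrb3.

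These counts stand against a high background. Of 19634 genes tested in fat, 35.8% were higher and 10.3% lower in DR than in AL, 46.3% were higher and 11.9% lower in DR-AL than in AL, and 38.7% were higher and 13.5% lower in DR-AL than in DR. The median log2 ratio of the 8 genes was 0.14, 0.37 and 0.51 in the 3 comparisons, beside 0.23, 0.39 and 0.27 over all genes tested. Of all genes that differed, 77.6%, 79.6% and 74.1% were higher in DR, in DR-AL and in DR-AL, respectively. With DESeq size factors those shares were 61.1%, 57.2% and 62.4%. Over 16908 genes with a mean of 10 counts or more, the median log2 ratio with totals was 0.24, 0.33 and 0.23, and log2 ratios less this median are therefore given for the genes below.

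Ucp3 was 66.4 CPM with AL, 33.2 with DR and 60.2 in DR-AL fat. The DR library alone was low, at 0.50 of AL (95% exact interval 0.459 to 0.545). Less the median of all genes, the log2 ratio of DR to AL was -1.24, and it was -1.24 with DESeq size factors and with FPKM as well. DR-AL was 1.81 of DR (1.66 to 1.98) and 0.907 of AL, and less the median the log2 ratios were 0.63 and -0.48. DR-AL was below AL past the test and fold with DESeq size factors (log2 ratio -0.48) and after subtraction of liver counts (-0.36). Scaled by white adipocyte markers, the log2 ratio of DR-AL to AL turned from -0.14 to 0.38. The median of all genes on that scale was 0.85, and less it the value was -0.47. In FPKM, without removal of the median, Ucp3 was not higher in DR-AL than in DR (5.69 against 5.83). Skeletal muscle markers were highest in the DR library, in which Ucp3 was lowest.

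Ucp2 was 173 CPM with AL, 159 with DR and 287 in DR-AL fat, so that the DR-AL library stood above the other 2. DR-AL was 1.66 of AL (1.60 to 1.72), 0.73 on the log2 scale, and 0.40 less the median of all genes. The direction turned in the deposited FPKM, where Ucp2 was 37.2, 22.3 and 21.1 and the log2 ratio of DR-AL to AL was -0.81. The median of all genes in FPKM was itself -1.19, and less that median the value was 0.37. DR was 0.922 of AL, -0.36 less the median, and past the fold in FPKM (log2 ratio -0.74). UCP2 is abundant in cells of the immune system. In AL, DR and DR-AL, the 5 macrophage markers in the table summed to 305, 436 and 372 CPM, highest in DR. The 6 lymphocyte markers summed to 18.8, 12.0 and 23.1 CPM and the 4 endothelium markers to 746, 610 and 779 CPM, both lowest in DR and highest in DR-AL as Ucp2 was. Between DR-AL and DR, 5 of the lymphocyte and 2 of the endothelium markers were higher in DR-AL by the test. The part of these cells in the Ucp2 differences was not tested.

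Cidea was 3.47 CPM with AL, 11.6 with DR and 4.61 in DR-AL fat, from 91, 264 and 126 counts. The DR library was the highest, at 3.33 of AL (2.62 to 4.28). The log2 ratio was 1.73, and 1.49 less the median of all genes. DR-AL was 0.398 of DR (0.320 to 0.494) and 1.33 of AL (1.01 to 1.76). The last was not a difference by the test over all genes, and less the median its log2 value was 0.07. It was one over genes with a mean of 10 counts or more (0.41) and when scaled by white adipocyte markers (0.92). On the marker scale the median of all genes was 0.85, and less it the value was 0.07. In FPKM the log2 ratio of DR-AL to AL turned to -1.14. Smooth muscle and skeletal muscle marker sums were also highest in DR fat, as were the 5 epididymis markers named above, and their part in the Cidea difference was not tested.

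Prdm16, a transcriptional regulator of brown and beige cell fate, had 7.02, 7.80 and 8.81 CPM in AL, DR and DR-AL fat. Its ratio of highest to lowest level in fat was the smallest of the 8 genes. DR-AL was 1.26 of AL (1.03 to 1.53), just past the fold required. Less the median of all genes the log2 ratio was -0.01. With DESeq size factors it was also -0.01, close to the median gene. It no longer differed after subtraction of liver counts (0.13) or without the 10 most abundant genes in the total (0.25). Scaled by white adipocyte markers, the log2 ratio was 0.85 for DR-AL to AL and 0.71 for DR-AL to DR, and both then differed. The median of all genes on that scale was itself 0.85 and 0.77, and less it the values were -0.01 and -0.06.

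Adrb3 was highest in AL and lowest in DR-AL fat (1277.9, 1120.4 and 880 CPM). DR was 0.877 of AL (0.863 to 0.891), short of the fold required, and DR-AL was 0.689 of AL (0.677 to 0.700). The log2 ratio of DR to AL did pass with DESeq size factors (-0.38) and after subtraction of liver counts (-0.40), and it passed the fold in FPKM (-0.98). Less the median of all genes the log2 ratios were -0.43 for DR to AL, -0.87 for DR-AL to AL and -0.58 for DR-AL to DR. The white adipocyte markers summed to 44413.7, 38037.2 and 30996.3 CPM in the same order. Scaled by the median ratio of those markers, the log2 ratio of DR-AL to AL was -0.02 for Adrb3 and -0.03 for Ppargc1b. On this scale neither gene differed from AL, and the log2 ratio of DR-AL to DR was 0.19 for Adrb3 and -0.17 for Ppargc1b. Medians of all genes on this scale were 0.85 for DR-AL to AL and 0.77 for DR-AL to DR.

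Ppargc1b was 17.4 CPM with AL, 19.4 with DR and 11.9 in DR-AL fat, with the DR-AL library alone low. DR-AL was 0.685 of AL (0.592 to 0.792) and 0.614 of DR. Less the median of all genes the log2 ratios were -0.88 and -0.93.

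Dio2 counts were few in fat, 3 with AL, 16 with DR and 59 in DR-AL (0.114, 0.701 and 2.16 CPM). DR was 6.12 of AL (1.75 to 32.8) and DR-AL was 18.8 of AL (6.14 to 94.0). Of these counts, 3, 14 and 28 came from the locus on the strand of Dio2 and 0, 2 and 31 from a locus of the same name on the opposite strand. On the Dio2 strand alone DR was 5.36 of AL (1.5 to 29.1), DR-AL was 8.94 of AL (2.76 to 46.0) and DR-AL was 1.67 of DR (0.850 to 3.43), an interval that includes no difference. In hippocampus the opposite strand gave 18, 12 and 14 counts beside 2545, 2743 and 2730 on the Dio2 strand. Testis germ cell markers had the same order in fat as the counts of both strands, and their part in those counts was not tested.

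**Figure D3:**
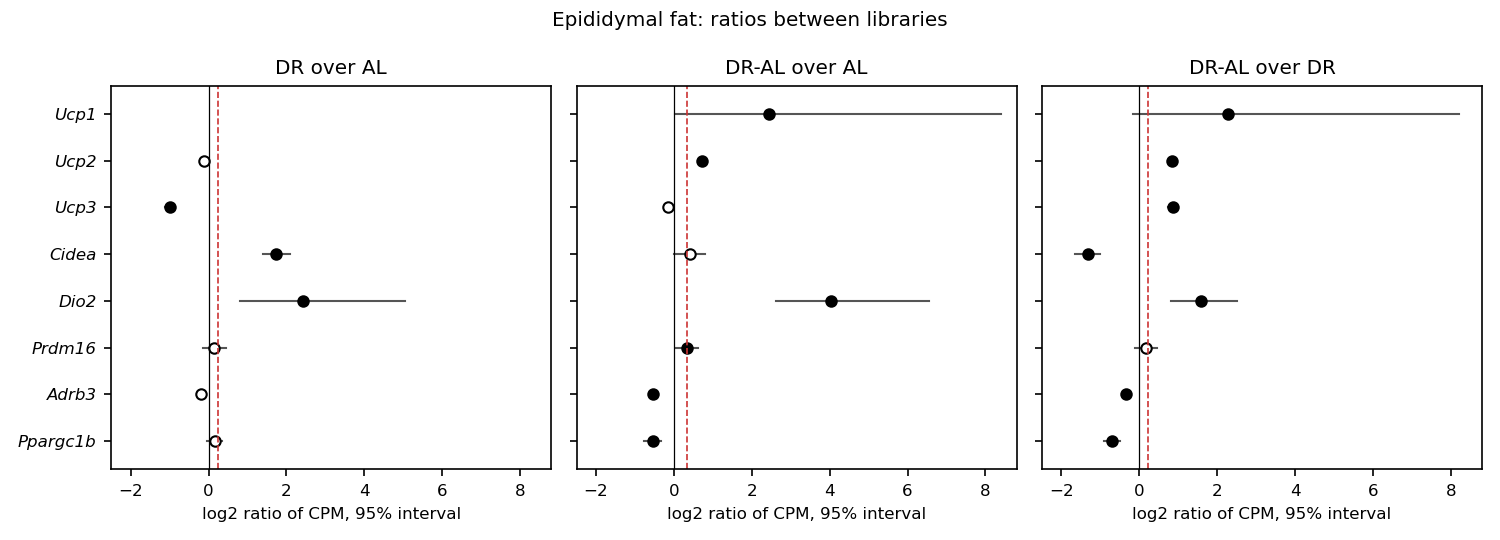
Log2 ratios of CPM between pairs of epididymal fat libraries for the 8 genes, with 95% exact intervals that cover counting error only. Filled points differ by the Z test and fold, open points do not, and the dashed line is the median of 16908 genes (0.24, 0.33 and 0.23). Cidea is highest in DR, Ucp3 is lowest in DR, and Adrb3 and Ppargc1b are lowest in DR-AL.

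The spread that biological replicates would add to these ratios is not known. The dispersion that edgeR estimated over the 3 fat libraries without regard to diet, which includes any effect of diet, was a coefficient of variation of 0.74. With it, none of the 8 genes differed in fat. With a coefficient of variation of 0.1, Ucp1 and Prdm16 no longer differed from AL in DR-AL, and Ucp1 and Adrb3 no longer differed between DR-AL and DR.

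In the other 4 tissues, 31 pairs of a gene and a tissue could be tested, since Ucp1 had 0 counts in liver. DR differed from AL in 9 of them, 5 higher and 4 lower, and DR-AL differed from AL in 7, 5 higher and 2 lower. Dio2 in liver, with 3 counts against 0, is counted among the 9. By tissue, 1.34% to 18.4% of all genes were higher and 2.58% to 10.5% lower with DR. In DR-AL, 4.08% to 15.3% were higher and 2.11% to 16.0% lower. With a coefficient of variation of 0.1, the 9 and 7 pairs became 1 (Adrb3 in DR colon) and 2 (Ucp3 and Adrb3 in DR-AL liver).

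In the liver, Adrb3 was 6.19 CPM with AL, 10 with DR and 2.86 in DR-AL, so that DR was 1.62 of AL (1.31 to 2.0) and DR-AL was 0.462 of AL (0.343 to 0.617). Ucp2 was 0.780 of AL in DR (0.691 to 0.879), with 27.2 CPM in AL and 21.2 in DR. Ucp3 had 1, 6 and 32 counts in AL, DR and DR-AL, and DR-AL was 32.3 of AL with an interval from 5.40 to 1315.7. The 7 skeletal muscle markers summed to 25.0, 163 and 240 CPM in these libraries, the same order, and their part in the Ucp3 counts was not tested. Cidea had 5, 3 and 20 counts, and DR-AL was 4.04 of AL (1.47 to 13.8). The 10 white adipocyte markers summed to 207, 158 and 257 CPM. Against AL, 2 were higher and 4 lower with DR (median log2 ratio 0.87), and 4 were higher and 1 lower in DR-AL (1.01). Their part in the Cidea counts was not tested. Dio2 had 3 counts in DR and 0 in AL, which the test took as a difference, but both are within what a count of 0 allows. Thus with DR 2 of 7 genes were higher (Adrb3 and Dio2) and 1 lower (Ucp2). In DR-AL 2 other genes were higher (Ucp3 and Cidea) and 1 was lower (Adrb3). Of 16962 genes, 18.4% were higher and 10% lower with DR, and 15.3% were higher and 16.0% lower in DR-AL. With DESeq size factors, 50.8% of the genes that differed with DR were higher, against 64.8% with totals.

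In the colon, Adrb3 was the only one of the 8 genes to differ. It had 27 counts with AL, 5 with DR and 13 in DR-AL, and DR was 0.147 of AL (0.0442 to 0.388). White adipocyte markers were lower in the same library, 9 of 10 of them by the test, with a median log2 ratio of -1.19. Their part in the Adrb3 counts was not tested. Ucp2 and Ppargc1b, the members abundant in colon, did not differ, with 656, 615 and 559 CPM for Ucp2 and 75.3, 63.2 and 64.5 CPM for Ppargc1b. Of 17747 genes, 9.21% were higher and 10.5% lower with DR, and 5.90% were higher and 9.10% lower in DR-AL, where none of the 8 genes differed by the Z test.

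In the hypothalamus, Ucp2 was 129 CPM with AL, 101 with DR and 89.2 in DR-AL. The AL library was the highest, and DR was 0.777 of AL (0.741 to 0.814) and DR-AL 0.690 (0.656 to 0.724). The 6 tanycyte markers (226, 160 and 71.7 CPM) and the 5 macrophage markers (116, 113 and 94.6 CPM) had summed levels in the same order. The tanycyte sum was not particular to hypothalamus, with 195, 214 and 204 CPM in hippocampus and 300, 293 and 203 CPM in fat. In DR-AL hypothalamus, 6 of the tanycyte and 2 of the macrophage markers were lower than in AL by the test. Their part in the Ucp2 difference was not tested. Dio2 was 15.5, 22.1 and 12.9 CPM, high in DR alone, with 1.43 of AL (1.27 to 1.61). There the enzyme is known to be made by tanycytes and astrocytes. The 6 astrocyte markers summed to 2892.9, 2879.2 and 2657.8 CPM, lowest in DR-AL as the tanycyte markers were. The 5 markers of telencephalic excitatory neurons, which the hypothalamus should largely lack, summed to 9.98, 45.0 and 25.2 CPM and were highest in the DR library, as Dio2 was. In hippocampus, where Dio2 was more abundant, those markers summed to 1464.1 CPM or more. Smooth muscle markers (27.0, 69.7 and 33.9 CPM) and endothelium markers (50.8, 61.4 and 55.1 CPM) were also highest in DR hypothalamus. The part of these 5 cell types in the Dio2 difference was not tested.

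Ppargc1b in the hypothalamus was 23.9, 27.1 and 31.4 CPM, and DR-AL was 1.32 of AL (1.20 to 1.45). Ucp3 was 6.03, 6.99 and 7.63 CPM, and DR-AL was 1.26 of AL (1.04 to 1.54). The sums of 5 neuron markers (3452.4, 3735.0 and 4168.9 CPM) and 4 oligodendrocyte markers (3201.1, 3560.1 and 4719.7 CPM) had the order of both genes. In DR-AL, 2 of the neuron and 3 of the oligodendrocyte markers were higher than in AL by the test, and their part in these differences was not tested. With DR, 1 gene was higher and 1 lower, and of 18684 genes 4.41% were higher and 2.69% lower. In DR-AL, 2 were higher and 1 lower, and 6.13% of all genes were higher and 9.10% lower.

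In the hippocampus, Dio2 was 63.3 CPM with AL, 88.2 with DR and 109 in DR-AL, with both libraries above AL. DR was 1.39 of AL (1.32 to 1.47) and DR-AL was 1.72 of AL (1.63 to 1.82). Astrocyte markers summed to 4654.8, 4650.2 and 5363.8 CPM and smooth muscle markers to 40.8, 45.7 and 57.0 CPM. Ucp2 was 31.9, 21.6 and 33.1 CPM, and DR alone was low, at 0.680 of AL (0.618 to 0.747). The 10 hepatocyte markers, which include the choroid plexus gene Ttr, summed to 2696.7, 1642.7 and 2604.9 CPM and were also lowest in DR, where 4 of 9 tested were lower than in AL. Oligodendrocyte markers summed to 4952.5, 4079.3 and 4376.7 CPM, and 2 of 4 were lower with DR. The part of these cells in the Ucp2 and Dio2 differences was not tested. Ppargc1b was 21.6 CPM in AL and 27.1 in DR, a ratio of 1.26. With DR, 2 of the 8 genes were higher and 1 lower, where 1.34% of 18225 genes were higher and 2.58% lower. In DR-AL only Dio2 differed, and 4.08% of all genes were higher and 2.11% lower. Dio2 and Ppargc1b were no longer different with a coefficient of variation of 0.1, and neither was Ucp2. The dispersion that edgeR estimated over the hippocampus libraries without regard to diet was a coefficient of variation of 0.0698. With it, Dio2 in DR-AL still differed from AL, and none of the DR differences did.

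**Figure D4:**
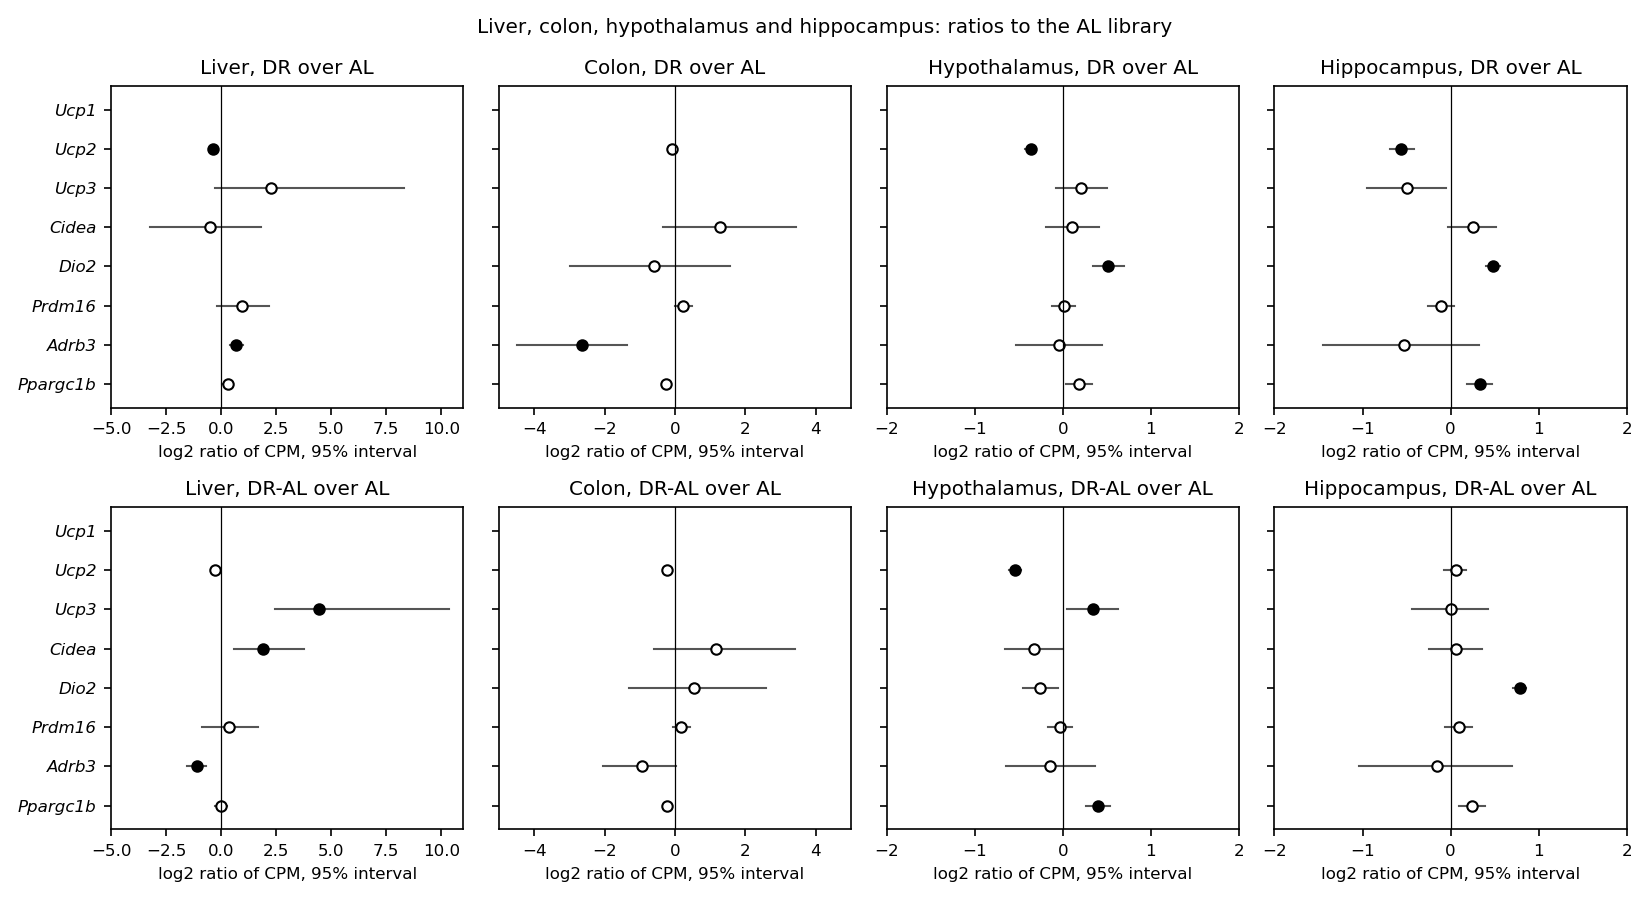
Log2 ratios of CPM to the AL library for the 8 genes in liver, colon, hypothalamus and hippocampus, with 95% exact intervals of counting error and with horizontal scales that differ between tissues. Filled points differ by the Z test and fold, and a ratio is left out where both libraries had 3 counts or fewer. Ucp2 is lower with DR in liver, hypothalamus and hippocampus, and Dio2 is higher with DR in both brain regions.

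A diet effect shared by the 5 tissues was tested with edgeR over all 15 libraries, with tissue and diet as terms. The tissues stood in as replicates of a diet although they came from the same mice. None of the 7 genes in the fit passed for DR against AL (edgeR adjusted p = 1 for each) or for DR-AL against AL (edgeR adjusted p from 0.847 to 0.929). Among all 16993 genes, 0.00588% were higher and 0.00588% lower with DR, and 0.00588% were higher and 0.00% lower in DR-AL. At an unadjusted p under 0.05, 646 genes passed for DR and 844 for DR-AL. Neither number is more than that threshold would pass by chance among 16993 genes. Ucp2 was the one of the 8 genes to pass it, for DR, with a log2 ratio of -0.36 (SE 0.15, edgeR, unadjusted p = 0.0389). DESeq2 called none of the 8 genes either.

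Genes of the same pathways were read from 6 lists. Of 24 brown and beige adipocyte genes measured in fat, 7 were higher and 5 lower with DR, and 7 were higher and 8 lower in DR-AL than in AL. Of all genes tested in fat, as above, 35.8% were higher and 10.3% lower with DR and 46.3% were higher and 11.9% lower in DR-AL, and the counts of each list stand against these shares. The median log2 ratios of the 24 genes were 0.12 and -0.13, beside 0.23 and 0.39 over all genes tested. Cited1, a beige adipocyte marker, had the pattern of Cidea, with 7.13, 27.1 and 9.61 CPM in AL, DR and DR-AL. Acot11, an acyl-CoA thioesterase of brown fat, was also highest in DR (4.39, 12.8 and 5.30 CPM). Elovl3, a fatty acid elongase induced in brown fat, went the other way and was 4.54, 1.75 and 0.219 CPM. Fabp3, a fatty acid carrier also of muscle, was 1.53, 8.63 and 39.5 CPM, in the order of the testis germ cell markers. Skeletal muscle markers were highest in DR. Pank1, of coenzyme A synthesis, was 63.8, 22.6 and 45.9 CPM. Unlike Cited1, Tmem26, Tnfrsf9 and Tbx1 of the same list did not differ with DR (log2 ratios -0.42, 0.39 and 0.64). Liver RNA would account for 85.0% of the Pank1 counts in AL fat and for more Elovl3 counts (511) than the 119 found there.

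Among 14 beta-adrenergic signalling genes, 3 were higher and 1 lower with DR, and 2 were higher and 5 lower in DR-AL than in AL, against 35.8% and 10.3%, and 46.3% and 11.9%, of all genes. The medians were 0.07 and -0.08, again beside 0.23 and 0.39. Prkaca, a catalytic subunit of protein kinase A, was 156, 238 and 109 CPM. The regulatory subunit Prkar2b was 661, 566 and 314 CPM, the cyclic AMP phosphodiesterase Pde3b was 560, 390 and 382 CPM, and the receptor Adrb1 was 3.66, 3.02 and 2.08 CPM. Prkacb (89.9, 113 and 85.0 CPM) and Gnas (799, 1046.0 and 876 CPM) differed from AL with DR by the test and not in DR-AL. All of these named genes except Gnas had their lowest level in DR-AL fat, as did Adrb3 and the summed white adipocyte markers.

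Of 10 thyroid hormone genes, 3 were higher and 4 lower with DR, and 1 was higher and 6 lower in DR-AL, beside 35.8% and 10.3%, and 46.3% and 11.9%, of all genes. The medians were -0.25 and -0.66, and those of all genes 0.23 and 0.39. Thrsp, a gene of fatty acid synthesis that responds to thyroid hormone, was 636, 2077.5 and 174 CPM. The receptor Thrb was 40.1, 25.2 and 20.7 CPM and the transporter Slc16a10 was 78.3, 44.1 and 49.5 CPM. Dio1, the deiodinase of liver, was 29.4, 1.23 and 2.34 CPM, and liver RNA would account for 99.9% of its counts in AL fat.

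Of 12 PGC-1 partner and mitochondrial biogenesis genes, 2 were higher and 1 lower with DR, and 7 were higher and 3 lower in DR-AL, with medians of 0.10 and 0.35. Over all genes the shares higher and lower were 35.8% and 10.3% with DR and 46.3% and 11.9% in DR-AL, and the medians 0.23 and 0.39. Esrra, a nuclear receptor that PGC-1 coactivators bind, was 38.5, 58.4 and 30.2 CPM. Its relative Esrrg was 1.91, 3.81 and 5.12 CPM, and Tfb1m, a mitochondrial rRNA methyltransferase, was 5.91, 7.40 and 15.1 CPM. Ppara was 90.1, 22.2 and 13.8 CPM, and liver RNA would account for 56.8% of its counts in AL fat.

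Of 16 mitochondrial carrier genes other than the 3 uncoupling proteins, 8 were higher and 4 lower with DR, and 5 were higher and 8 lower in DR-AL, with medians of 0.39 and -0.23. Again 35.8% of all genes were higher and 10.3% lower with DR, and 46.3% and 11.9% in DR-AL, with medians of 0.23 and 0.39. The citrate carrier Slc25a1 was 286, 1024.5 and 95.3 CPM and the dicarboxylate carrier Slc25a10 was 152, 440 and 72.0 CPM. Both were highest in DR and lowest in DR-AL fat, as Thrsp was. Slc25a31, an ADP/ATP carrier of testis, had 0, 39 and 249 counts, in the order of the testis germ cell markers. Slc25a13 was 63.7, 5.96 and 9.98 CPM, and liver RNA would account for 77.0% of its counts in AL fat.

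The futile cycle genes serve heat production without UCP1, through creatine, calcium or N-acyl amino acids. Of 11, 6 were higher and 2 lower with DR, and 4 were higher and 2 lower in DR-AL, with medians of 0.46 and 0.31. The shares of all genes were 35.8% and 10.3%, and 46.3% and 11.9%, with medians of 0.23 and 0.39. Creatine kinase B (Ckb) was 63.0, 208 and 106 CPM, highest in DR. The mitochondrial creatine kinase Ckmt1 was 4.46, 1.45 and 2.78 CPM, lowest in DR, and Pm20d1, which makes N-acyl amino acids, was 24.1, 8.02 and 4.50 CPM. Ckmt2, the muscle form, had 1, 60 and 120 counts, highest in DR-AL, where skeletal muscle markers summed to 117 CPM against 529 in DR. Sln, Ryr2 and Atp2a2 were also among the 6 genes higher with DR, with log2 ratios of 5.05, 1.28 and 0.46. All 7 skeletal muscle markers (median log2 ratio 5.05) and all 5 smooth muscle markers (1.51) were higher in DR fat as well. The part of muscle RNA in this list was not tested. Liver RNA would account for 56.2% of the Pm20d1 counts and 1.10% of the Ckb counts in AL fat.

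**Figure D5:**
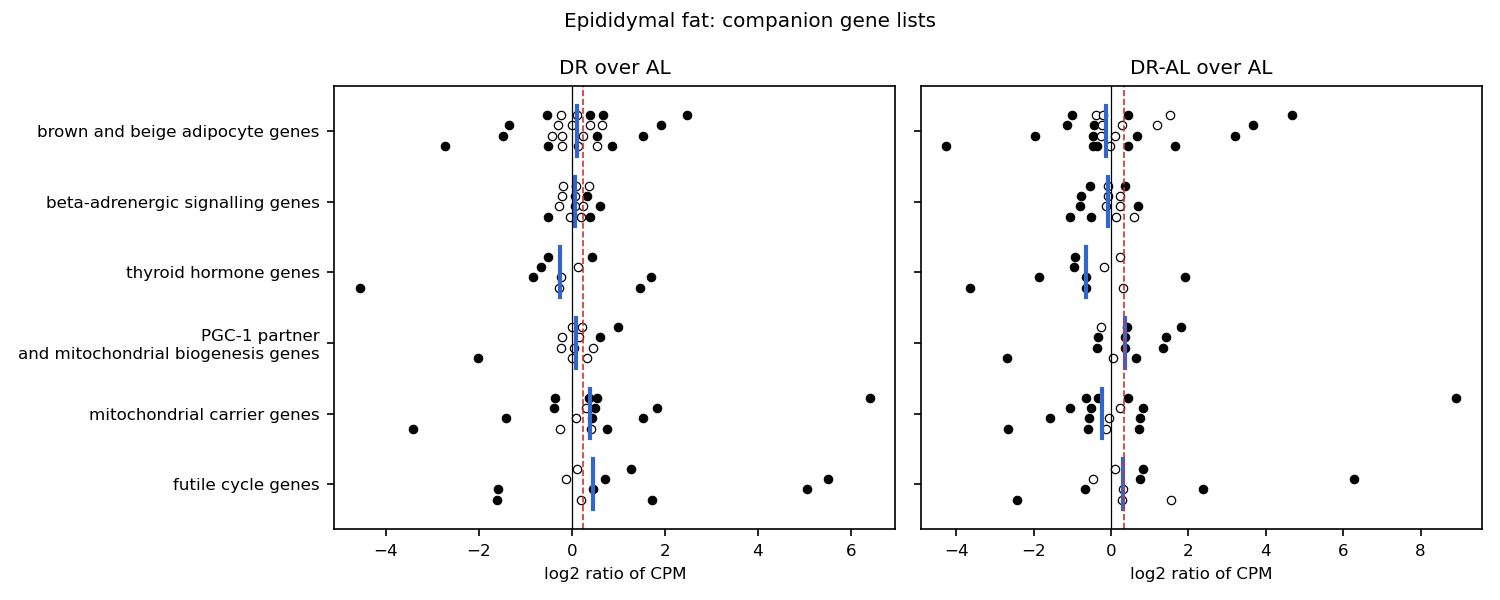
Log2 ratios of CPM to AL in epididymal fat for each gene of the 6 companion lists, with a pseudocount of 0.5 counts. Each point is a gene, filled where it differs by the Z test and fold, the blue bars are list medians and the dashed line is the median of 16908 genes (0.24 and 0.33). In DR-AL the brown and beige, beta-adrenergic, thyroid hormone and carrier lists have medians below 0, from -0.66 to -0.08.

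For each of the 8 genes, the genes with the most similar levels were sought among 17173 genes by the correlation of log2(CPM + 0.5) over the 15 libraries. These correlations follow the 5 tissues, share libraries and depth, and are descriptions. Adrb3 was most like Exd1 (r = 0.993), the chemokine gene Ccl11 (0.990) and the oestrogen sulphotransferase gene Sult1e1 (0.986). Ucp3 was most like Eln, the elastin gene (0.985), Kirrel (0.983) and Ggta1 (0.981), and Ucp2 was most like Arrdc1 (0.986), Sox13 (0.986) and Ptger4 (0.979). For Cidea they were Tmem119 (0.982), Rassf2 (0.977) and Coq2 (0.977), for Dio2 Chrm4 (0.998), Egr4 (0.994) and Nphs1 (0.993), for Prdm16 Tbc1d22b (0.995), Zfp827 (0.995) and Dctd (0.994), and for Ppargc1b Akap9, Slc36a1 and Galnt6 (0.972 each). None of the 8 genes was among the 3 closest of another. Ucp1 was most like AV039307 (0.914), 4933427E11Rik (0.899) and 4930452G13Rik (0.895), which were 0.267, 0.0763 and 0 CPM in AL fat and 3.25, 4.79 and 7.86 CPM in DR-AL fat. The testis germ cell and epididymis marker sums in fat were also highest in DR-AL. Their part in the counts of Ucp1 and its neighbours was not tested.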

How the data were processed

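RNA-Seq values of 15 pooled libraries were used, from 1 table with a count and an FPKM column per library. According to the methods, the authors depleted ribosomal RNA, aligned reads to mm10 with Strand software and kept the strand, while the submitters' processing notes name mm9 and DESeq2. Table positions of the 8 genes did not overlap GRCm38, so annotated positions are printed. The deposited counts are whole numbers per locus and are not normalized. The deposited FPKM values were scaled by the authors by length and library, and their scaling between libraries is not stated in the sources used here.

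Loci of the same gene name were summed, and loci without a name (0.258 to 1.39% of counts) were left out. Genes with at least 1 count in a tissue were tested pairwise by the Z test of the methods (square root of the share of counts, Poisson variance, Benjamini-Hochberg adjusted), which compares libraries and not diets. Ratios have exact Clopper-Pearson 95% intervals, and log2 ratios use a pseudocount of 0.5 counts. These intervals and the limit of 3 counts cover counting error only. Tissue and shared diet effects were fitted with edgeR 4.0.16 in R 4.3.3 (quasi-likelihood, TMM, filterByExpr), and DESeq2 1.42.0 was an alternative. Liver RNA in fat was estimated from 190 genes above 100 CPM in liver and low in the other tissues. Scripts were tested on simulated data.

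The 8 genes, the lists and the tests were chosen with earlier results of these data known. Named besides the 8 genes were, per list, up to 4 genes with the largest DR to AL ratio and up to 2 with the largest DR-AL to AL ratio in fat (mean of 50 counts or more), and the 3 genes correlating best with each of the 8. Alternatives covered scaling, filters, dispersion, fold, FPKM and left-out libraries.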

Additional observations from a re-analysis of the deposited data

Results flagged for a closer look

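In 3 cases a gene differed from AL in opposite directions in different tissues. Each rests on 1 library per group, and the difference between the tissues was not tested. Ucp2 in DR-AL had a log2 ratio to AL of 0.73 in epididymal fat and of -0.54 in hypothalamus. Adrb3 with DR had a log2 ratio of 0.69 in liver and of -2.64 in colon, where it had 27 counts in AL and 5 in DR. Ppargc1b in DR-AL had a log2 ratio of 0.40 in hypothalamus and of -0.54 in fat. In fat, the Ucp2 value was -0.81 in FPKM, and the Ppargc1b value was -0.03 when scaled by white adipocyte markers. The medians of all genes in fat on these scales were -1.19 and 0.85. With a coefficient of variation of 0.1, neither hypothalamus value nor that of Adrb3 in liver differed from AL.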

How the results depend on the processing

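No paired analysis was possible because, within a tissue, each diet has 1 pooled library and the labels carry no replicate numbers. The edgeR fit over 15 libraries compared diets within tissues through its tissue term, and 0 of the 7 genes passed with or without it. DESeq size factors, and likewise subtraction of liver counts, gave 4 genes in place of 3 for DR against AL in fat, with Adrb3 added. With the estimated dispersion of each tissue, 0 of the 8 genes differed in fat. The numbers had been 3 (DR against AL), 6 (DR-AL against AL) and 7 (DR-AL against DR). In the other tissues it gave 1 in place of 9 (Adrb3 in DR colon) and 2 in place of 7. Those 2 were Ucp3 in DR-AL liver and Dio2 in DR-AL hippocampus. A coefficient of variation of 0.1 gave 1 and 2 in the other tissues. A fold of 2 gave 2 for DR-AL against AL and 3 for DR-AL against DR in fat, and 2 and 3 in the other tissues. With FPKM a gene was called by the fold alone, without the Z test, so these numbers are not on the same footing. A pseudocount of 0.1 then gave 7 for DR against AL in fat and 15 and 12 in the other tissues. A pseudocount of 1 gave 4 for DR-AL against DR in fat and 5 for DR against AL in the other tissues. Leaving out each fat library in turn left 3 to 4 genes higher in fat.

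Of 1002 values of single genes under an alternative, 848 kept direction and call, 86 lost the call, 29 gained it and 39 changed direction. Log2 ratios that changed direction follow. In fat for DR against AL, DESeq size factors gave -0.04 for Prdm16 and -0.03 for Ppargc1b, and subtraction of liver counts gave -0.01 for Ucp1 and -0.05 for Prdm16. FPKM with pseudocounts of 0.1 and 1 gave -0.06 and -0.01 for Ucp1, -0.55 and -0.24 for Prdm16, and -0.52 and -0.28 for Ppargc1b. For DR-AL against AL, DESeq size factors gave -0.01 for Prdm16, adipocyte marker scaling gave 0.38 for Ucp3, and FPKM gave -0.81 and -0.79 for Ucp2, -1.14 and -0.70 for Cidea, and -1.13 and -0.44 for Prdm16. For DR-AL against DR, adipocyte marker scaling gave 0.19 for Adrb3, and FPKM gave -0.08 and -0.07 for Ucp2, -0.03 and -0.03 for Ucp3, and -0.58 and -0.20 for Prdm16. The deposited FPKM have a lower median over all genes in DR and DR-AL fat than in AL fat. With adipocyte marker scaling the median of all genes was 0.85 for DR-AL to AL and 0.77 for DR-AL to DR. Elsewhere FPKM gave 0.02 for Ucp2 in colon and 0.07 and 0.05 for Prdm16 in hippocampus with DR, and 0.07 and 0.05 for Prdm16 in hypothalamus and -0.01 for Ucp2 in hippocampus in DR-AL. The sense locus alone, an alternative chosen after seeing the data, gave -0.21 for Dio2 in DR-AL colon. In the shared diet effects, none of which passed, Ppargc1b with DR was -0.04 without the tissue term and -0.01 without hippocampus. In DR-AL, Ucp3 was -0.27 without the tissue term and -0.09 without liver, and Ppargc1b was 0.09 without fat. Except where stated, the cause was not tested. Depth limits Ucp1 in all tissues and Dio2 in fat, liver and colon.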
